A study of Homo sapiens with 6 samples.

Results

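The mitosis genes are a list of 38 genes that drive and carry out cell division, measured in L428 cells, a long-established human Hodgkin lymphoma line. They were chosen by name, with earlier results of these data known. Each was read at its brightest Affymetrix probe set by mean over all arrays, among 19775 genes that the array names by 1 symbol. An antisense oligonucleotide of locked nucleic acid (LNA) against miR-9, or an LNA of scrambled sequence, was nucleofected into the cells, and total RNA was taken 9 h later. The miR-9 LNA group and the scrambled LNA group had 3 arrays each, all from L428 cells grown in the same medium. The labels number the replicates without saying whether they were separate cultures, so every p-value measures the spread between these samples, which may be technical. Values are the deposited log2 RMA levels, and every difference is the miR-9 LNA mean minus the scrambled mean.

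Mitosis is driven by CDK1 bound to cyclins A and B. Polo-like and Aurora kinases build the spindle, kinesin motors and spindle proteins move the chromosomes, and the spindle checkpoint holds back the anaphase-promoting complex until every kinetochore is attached. The mRNAs of these genes accumulate together in G2 phase and mitosis, so in bulk RNA they are widely read as a proliferation signature. A microRNA lowers mRNAs that pair with its seed, and an LNA inhibitor binds the microRNA and blocks that pairing. The series title names a block of tumour outgrowth by miR-9 inhibition, and the mitosis genes are read here for their mRNA levels in cultured cells at 9 h. In bulk RNA, a different number of cells in mitosis and a different amount of mitotic mRNA per cell cannot be told apart.

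The inhibitor is directed at mature miR-9-5p, shown here with its seed, bases 2 to 8, in capitals. RefSeq lists the same 23 bases at 3 loci of GRCh38.p14, MIR9-1 (chr1:156420392-156420414, minus strand), MIR9-2 (chr5:88666902-88666924, minus strand) and MIR9-3 (chr15:89368032-89368054, plus strand).
hsa-miR-9-5p: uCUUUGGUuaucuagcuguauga

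Many mitosis genes share a promoter layout in which a CCAAT box, bound by NF-Y, lies upstream of a cell cycle genes homology region (CHR), the site through which the MuvB complex with B-MYB, FOXM1 or the DREAM repressors acts. A RefSeq promoter window of 300 bases, 250 before to 50 after the gene start in GRCh38.p14, was matched to 32 of the 38 genes. The letters TTTGAA or TTCGAA, searched on both strands, were in a window of 24 of these 32 genes (75%), against 19.5% of all 27305 genes with a window. The letters CCAAT, on both strands, were in 26 of 32 (81.2%), against 39.7% of all genes. Both were present in 20 of 32 (62.5%), against 7.85% of all genes. Of 105 other mitotic genes with a window, listed further below, 54.3% held the CHR letters, 58.1% CCAAT and 32.4% both. The counts did not check that CCAAT lay upstream of the CHR letters. CENPE and KIF2C held neither within this window, which says only that these letters are not there.

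The 110 bases before the gene start are printed for 8 genes, from 5′ to 3′ on the strand of the gene, with the CHR letters and the CCAAT letters on either strand in capitals. PLK1 comes first because it was the only mitosis gene with a difference below 0. PRC1, CCNB2, HMMR, KIF4A and CKS2 carry the same CCAAT and CHR layout, and CCNB1 and NEK2 carry CCAAT boxes without those CHR letters. In HMMR, a CCAAT on each strand overlaps the other.
PLK1, chr16:23678779-23678888, plus strand: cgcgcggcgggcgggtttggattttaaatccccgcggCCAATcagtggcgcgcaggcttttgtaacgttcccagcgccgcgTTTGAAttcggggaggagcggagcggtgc
PRC1, chr15:90994536-90994645, minus strand: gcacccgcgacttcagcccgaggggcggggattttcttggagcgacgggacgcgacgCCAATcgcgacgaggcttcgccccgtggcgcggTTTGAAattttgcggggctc
CCNB2, chr15:59105036-59105145, plus strand: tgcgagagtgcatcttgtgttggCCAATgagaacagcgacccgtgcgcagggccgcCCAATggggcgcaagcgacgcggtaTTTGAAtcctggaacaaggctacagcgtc
HMMR, chr5:163460522-163460631, plus strand: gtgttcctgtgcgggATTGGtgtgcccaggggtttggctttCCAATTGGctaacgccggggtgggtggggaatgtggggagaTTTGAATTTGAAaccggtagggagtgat
KIF4A, chrX:70289994-70290103, plus strand: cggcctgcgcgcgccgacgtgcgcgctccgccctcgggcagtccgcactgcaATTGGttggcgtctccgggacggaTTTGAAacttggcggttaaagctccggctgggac
CKS2, chr9:89311085-89311194, plus strand: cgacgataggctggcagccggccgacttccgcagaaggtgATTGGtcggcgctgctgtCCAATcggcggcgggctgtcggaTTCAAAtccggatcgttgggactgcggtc
CCNB1, chr5:69167040-69167149, plus strand: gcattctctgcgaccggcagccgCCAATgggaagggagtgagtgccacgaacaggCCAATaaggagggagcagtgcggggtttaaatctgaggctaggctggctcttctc
NEK2, chr1:211675622-211675731, minus strand: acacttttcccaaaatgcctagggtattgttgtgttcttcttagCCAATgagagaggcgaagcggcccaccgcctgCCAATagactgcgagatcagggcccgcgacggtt

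Most markers of a Hodgkin line were bright. All 8 Hodgkin line markers passed the level filter, with TNFRSF8 (CD30) averaging 10.57 on miR-9 LNA arrays and 10.45 on scrambled arrays, while 0 of 8 T and NK cell markers, 2 of 7 myeloid and 5 of 8 fibroblast and endothelial markers did. Of 7 B cell identity genes, which Hodgkin cells usually lose, 3 passed. Scrambled replicate 1 stood apart. Its 90th percentile was 9.28, against 9.53 to 9.57 on the miR-9 LNA arrays and 9.45 and 9.47 on the other scrambled arrays, and its added bacterial RNA dap read 10.19, against 8.06 to 8.67 elsewhere. The ACTB 3′ minus 5′ difference, a measure of RNA integrity and labelling, was 0.87, 0.40 and 0.22 on miR-9 LNA replicates 1, 2 and 3 and 0.58, 0.36 and 0.24 on scrambled replicates 1, 2 and 3. The part of these array differences in the results was not tested. By their 90th percentiles, 9.28 to 9.57, the deposited arrays did not share one distribution of values. Quantile normalization between arrays gives them one, and values after it are given beside each role. Where leaving out 1 array turned a gene's difference or brought it over 1.5 times nearer to 0, the value moved farthest that way is given too.

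All 38 mitosis genes passed the level filter, and 37 of them had a higher mean with the miR-9 LNA than with the scrambled LNA. CENPF, HJURP and TPX2 had the smallest p, and PLK1 alone lay lower. The differences were small, from 0.928-fold for PLK1 to 1.26-fold for DLGAP5, and 0 of 38 reached 1.5-fold. Over all tested probe sets the log2 difference ranged from -0.55 to 0.76, and the share at 1.5-fold was not counted. None of the mitosis genes passed the threshold of a limma adjusted p under 0.05, and 0% of the 27307 probe sets tested did. The lowest adjusted p among the mitosis genes was 0.296, and over the alternative settings the lowest ranged from 0.121 to 0.900. The 95% interval of the difference included 0 for 26 of the 38 genes, and the highest upper bound of any interval was 0.65.

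A similar share of other bright probe sets lay higher. The tested probe sets were split by mean level into 5 equal classes. Of all tested probe sets 66.9% had a difference above 0, and of the brightest class, which held 33 of the 38 mitosis genes, 95.3%. The median difference was 0.19 over the mitosis genes, 0.06 over all tested probe sets and 0.19 over the brightest class. At an unadjusted limma p under 0.05, 12 of the 38 genes (31.6%) were higher and 0 were lower, against 13.8% higher and 0.626% lower among all tested probe sets and 31.2% higher in the brightest class. For 13 of the 38 genes (34.2%) every miR-9 LNA array lay above every scrambled array, against 18.1% of all tested probe sets and 34.6% of the brightest class. With replicate number as a block, 20 of 38 genes (52.6%) had an unadjusted limma p under 0.05 in the higher direction, against 21.8% of all tested probe sets and 45.5% of the brightest class, and 0 passed the adjusted threshold. By role these were 1 of 6 cyclins, CDK1 and partners, 2 of 4 mitotic kinases, 2 of 5 spindle checkpoint genes and 0 of 3 anaphase control genes. They were also 5 of 7 centromere, kinetochore and passenger genes, 3 of 5 kinesins, 6 of 6 spindle assembly genes and 1 of 2 chromosome structure and cytokinesis genes. For the counts by role below, the shares of all tested probe sets and of the brightest class given here are the background.

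**Figure D1:**
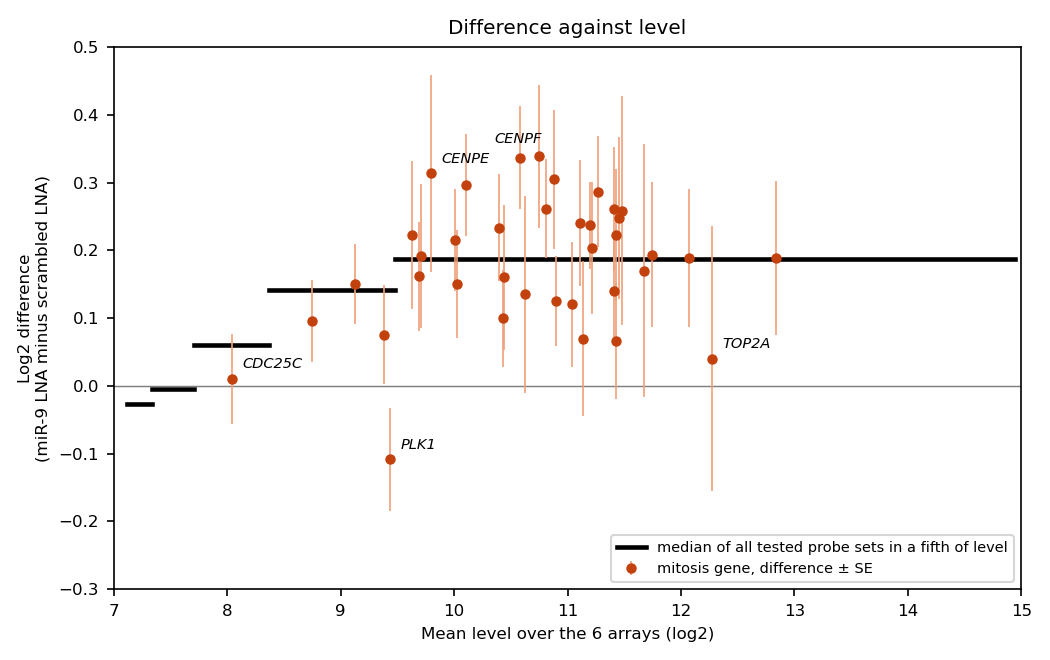
The vertical axis is the log2 difference, miR-9 LNA minus scrambled LNA, and the horizontal axis the mean log2 level over the 6 arrays. Points are the 38 mitosis genes with the limma standard error (n = 3 arrays per group), and black bars are the medians of all tested probe sets in each of 5 level classes, which run from -0.03 in the dimmest to 0.19 in the brightest. Most points scatter around the bars, and PLK1 at -0.11 is the only point below 0.

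After quantile normalization between arrays, a higher miR-9 LNA mean was found for 22 of the 38 mitosis genes (57.9%) and a lower one for 16, against 51.5% of all tested probe sets higher and 56.2% of the brightest class. The median difference was then 0.01 over the mitosis genes and 0.01 over the brightest class. On these values 0 mitosis genes had groups without overlap in the higher direction, against 5.98% of all tested probe sets, and 1 did in the lower direction, against 5.72%. That gene was PLK1, which was also the only one with an unadjusted limma p under 0.05 (0 higher and 1 lower, against 2.38% higher and 2.17% lower among all tested probe sets). With replicate number as a block on the same values, 3 were higher (CENPE, CENPF and DLGAP5) and 2 lower (PLK1 and MAD2L1) at an unadjusted limma p under 0.05, against 6.47% higher and 4.19% lower among all tested probe sets, and 0 passed the adjusted threshold. Without scrambled replicate 1 in the deposited values, 32 of 38 genes were higher with a median of 0.12, beside 84.7% and a median of 0.12 for the brightest class. Against the values from all arrays, 5 genes then turned below 0 and 12 moved over 1.5 times nearer to 0. Without miR-9 LNA replicate 1, 2 turned below 0 and 10 moved over 1.5 times nearer to 0.

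**Figure D2:**
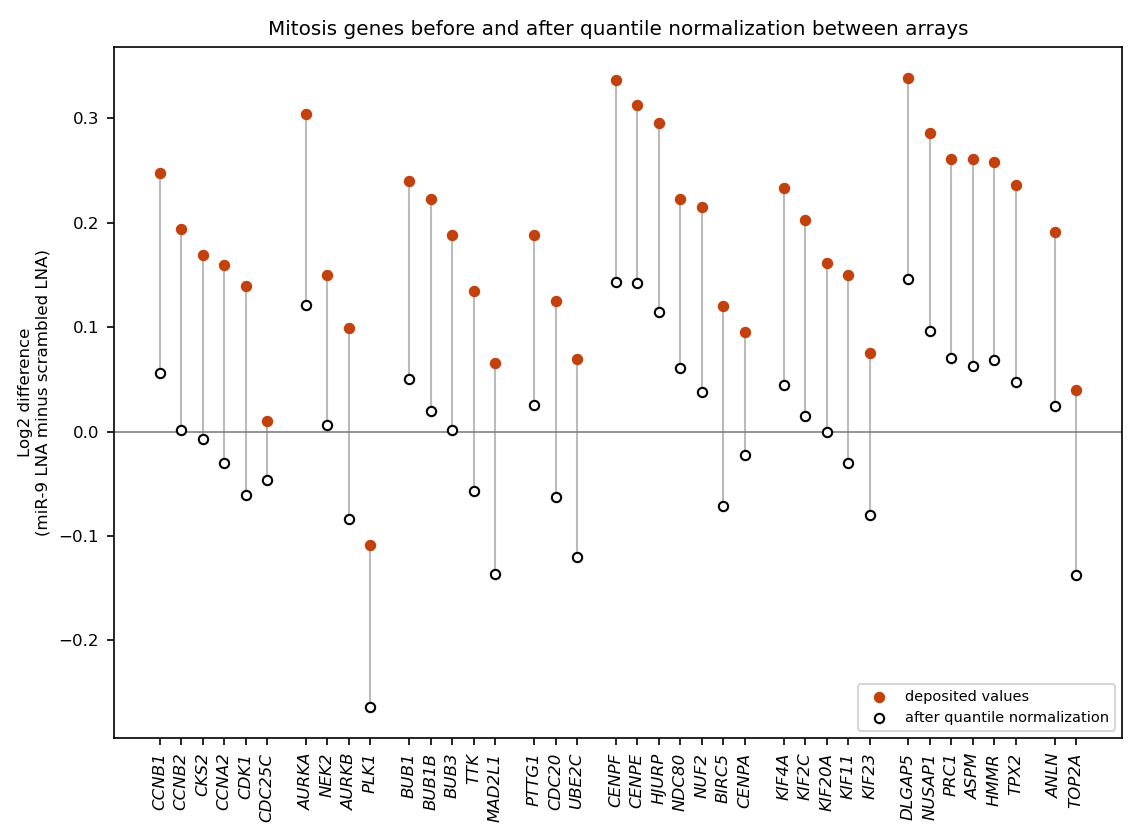
The vertical axis is the log2 difference, miR-9 LNA minus scrambled LNA, for each of the 38 mitosis genes along the horizontal axis, grouped by role. Filled points are the deposited values and open points the same arrays after quantile normalization. All filled points except PLK1 lie above 0, and 16 of the 38 open points lie below 0.

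Cyclins, CDK1 and its partners had a higher miR-9 LNA mean in 6 of 6 genes, with a median difference of 0.16, and 0 of 6 had an unadjusted limma p under 0.05. CCNB1, the cyclin B that activates CDK1 at mitotic entry, was at 11.56, 11.59 and 11.59 with the miR-9 LNA and at 11.04, 11.49 and 11.46 with the scrambled LNA. The groups did not overlap, and scrambled replicate 1 was well below the other 5 arrays. The CCNB1 difference was 0.25 ± 0.12 (SE, limma adjusted p = 0.381), and 0.10 without scrambled replicate 1. CDK1, the kinase itself, was at 11.60, 11.47 and 11.37 with the miR-9 LNA and at 11.36, 11.39 and 11.27 with the scrambled LNA. Its groups overlapped, and its difference was 0.14 ± 0.08 (limma adjusted p = 0.423), and 0.08 without miR-9 LNA replicate 1.

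The other genes of this group differed by less than 2 standard errors. CCNA2, the cyclin of S phase and G2, differed by 0.16 ± 0.11, and CCNB2, a second B-type cyclin, by 0.19 ± 0.11. CKS2, a small subunit bound to CDK1, differed by 0.17 ± 0.19. CDC25C, the phosphatase that removes inhibitory phosphates from CDK1, differed by 0.01 ± 0.07. HuR, which the series title names, is known to bind and stabilize the mRNAs of CCNA2 and CCNB1 in other human cells. After quantile normalization 2 of the 6 genes of this role lay above 0, with a median of -0.02. CCNB1 was then at 0.06 and CCNB2 at 0.0019, and CCNA2 (-0.03), CDK1 (-0.06), CDC25C (-0.05) and CKS2 (-0.0073) lay below 0. Without scrambled replicate 1 the deposited difference was 0.08 for CCNB2, -0.03 for CDC25C and -0.05 for CKS2, and without miR-9 LNA replicate 1 it was 0.06 for CCNA2.

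The mitotic kinases lay on both sides of 0, with a median difference of 0.12 and 2 of 4 genes higher at an unadjusted limma p under 0.05. PLK1, which promotes mitotic entry, centrosome maturation and cytokinesis, was at 9.29, 9.41 and 9.46 with the miR-9 LNA and at 9.60, 9.45 and 9.42 with the scrambled LNA. The groups overlapped, with miR-9 LNA replicate 1 the lowest and scrambled replicate 1 the highest of the 6 arrays. The PLK1 difference was -0.11 ± 0.08 (limma adjusted p = 0.514, 95% interval -0.29 to 0.07). After quantile normalization it was -0.26 (p = 0.0374 by limma, unadjusted; the exact permutation test of 3 against 3 arrays cannot go below 0.1), and all miR-9 LNA arrays then lay below all scrambled arrays. Leaving out each array in turn from the deposited values, the PLK1 difference ranged from -0.14 to -0.05, with -0.05 found without scrambled replicate 1. PLK1 was read by 1 probe set, so no other probe set bears on it.

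AURKA, the Aurora kinase of centrosomes and spindle poles, was at 11.09, 11.06 and 10.94 with the miR-9 LNA and at 10.51, 10.87 and 10.80 with the scrambled LNA. The groups did not overlap, and the difference was 0.30 ± 0.10 (limma adjusted p = 0.299). NEK2, which separates the centrosomes, was at 9.20, 9.23 and 9.16 with the miR-9 LNA and at 9.00, 9.09 and 9.06 with the scrambled LNA. The NEK2 groups did not overlap, with a difference of 0.15 ± 0.06 (limma adjusted p = 0.327). AURKB, the kinase of the chromosomal passenger complex, differed by 0.10 ± 0.07. After quantile normalization AURKA differed by 0.12, NEK2 by 0.0058 and AURKB by -0.08. The deposited differences of AURKA and AURKB were 0.19 and 0.04 without scrambled replicate 1.

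Spindle checkpoint genes had a higher miR-9 LNA mean in 5 of 5 genes, with a median difference of 0.19, and 1 of 5 had an unadjusted limma p under 0.05. That gene was BUB1, a checkpoint kinase at kinetochores, at 11.29, 11.28 and 11.12 with the miR-9 LNA and at 10.82, 11.12 and 11.03 with the scrambled LNA. Its groups overlapped, with both at 11.12 at the edge, and its difference was 0.24 ± 0.09 (limma adjusted p = 0.322). BUB1B, which encodes BubR1 of the mitotic checkpoint complex, was at 11.70, 11.57 and 11.35 with the miR-9 LNA and at 11.39, 11.33 and 11.23 with the scrambled LNA. The groups overlapped at one array each, with a difference of 0.22 ± 0.10 (limma adjusted p = 0.352). BUB3, the partner of both, differed by 0.19 ± 0.10, TTK, the kinase that starts checkpoint signalling, by 0.14 ± 0.15, and MAD2L1, the inhibitor of CDC20, by 0.07 ± 0.09. After quantile normalization 3 of the 5 spindle checkpoint genes lay above 0, and the values ranged from -0.14 for MAD2L1 to 0.05 for BUB1. Without scrambled replicate 1 the deposited difference was 0.16 for BUB1, 0.08 for BUB3 and -0.02 for TTK. Without miR-9 LNA replicate 1 it was 0.14 for BUB1B and -0.02 for MAD2L1. With replicate number as a block, 2 of the 5 genes were higher at an unadjusted limma p under 0.05. Of all tested probe sets 21.8% were, and of the brightest class 45.5%.

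Genes of anaphase control had a higher miR-9 LNA mean in 3 of 3 genes, with a median difference of 0.13, and 0 of 3 had an unadjusted limma p under 0.05. CDC20, the activator of the anaphase-promoting complex, was at 10.93, 11.02 and 10.94 with the miR-9 LNA and at 10.79, 10.93 and 10.79 with the scrambled LNA. Its groups overlapped, with both at 10.93 at the edge, and its difference was 0.13 ± 0.07 (limma adjusted p = 0.415). PTTG1, which encodes securin, was at 13.17, 12.79 and 12.84 with the miR-9 LNA and at 12.60, 12.81 and 12.83 with the scrambled LNA. MiR-9 LNA replicate 1 was the highest and scrambled replicate 1 the lowest, while the other 4 arrays lay close together, and the difference was 0.19 ± 0.11 (limma adjusted p = 0.460). UBE2C, the ubiquitin-conjugating enzyme of this complex, differed by 0.07 ± 0.11. After quantile normalization 1 of the 3 genes lay above 0, with a median of -0.06, where CDC20 differed by -0.06, PTTG1 by 0.03 and UBE2C by -0.12. Without scrambled replicate 1 the deposited difference was 0.12 for PTTG1 and -0.05 for UBE2C, and without miR-9 LNA replicate 1 it was 0.07 for PTTG1. The PTTG1, BUB3 and CENPA probe sets carry the suffix _x_at, which marks probes that may also match other transcripts, and PTTG1 has near-identical relatives.

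Centromere, kinetochore and passenger genes had a higher miR-9 LNA mean in 7 of 7 genes, with a median difference of 0.22, and 3 of 7 had an unadjusted limma p under 0.05. CENPF, a large kinetochore protein of G2 and mitosis, was at 10.86, 10.75 and 10.63 with the miR-9 LNA and at 10.37, 10.47 and 10.39 with the scrambled LNA. The groups did not overlap, and the difference was 0.34 ± 0.08 (limma adjusted p = 0.296). HJURP, the chaperone that loads CENPA at centromeres, was at 10.37, 10.23 and 10.15 with the miR-9 LNA and at 9.97, 10.02 and 9.89 with the scrambled LNA. The HJURP groups did not overlap, with a difference of 0.30 ± 0.08 (limma adjusted p = 0.296). After quantile normalization CENPF differed by 0.14 and HJURP by 0.11, each with overlapping groups.

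CENPE, the kinetochore motor that aligns chromosomes, differed by 0.31 ± 0.15. The microtubule-binding kinetochore subunits NDC80 and NUF2 differed by 0.22 ± 0.11 and 0.21 ± 0.08. CENPA, the histone variant that marks centromeres, differed by 0.10 ± 0.06, and BIRC5, the survivin subunit of the passenger complex, by 0.12 ± 0.09. NUF2 and CENPA had groups without overlap. After quantile normalization CENPA differed by -0.02 and BIRC5 by -0.07, and the other 5 genes of the group stayed above 0. CENPA had a deposited difference of 0.06 without scrambled replicate 1. Without miR-9 LNA replicate 1 the difference was 0.13 for NDC80 and 0.03 for BIRC5, and without scrambled replicate 3 it was 0.19 for CENPE. With replicate number as a block, 5 of the 7 genes were higher at an unadjusted limma p under 0.05. Of all tested probe sets 21.8% were, and of the brightest class 45.5%.

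Kinesins had a higher miR-9 LNA mean in 5 of 5 genes, with a median difference of 0.16, and 1 of 5 had an unadjusted limma p under 0.05. That gene was KIF4A, a chromosome-arm and midzone kinesin, at 10.61, 10.55 and 10.37 with the miR-9 LNA and at 10.32, 10.30 and 10.21 with the scrambled LNA. The groups did not overlap, and the difference was 0.23 ± 0.08 (limma adjusted p = 0.298). KIF2C, which depolymerizes microtubules at centromeres, was at 11.38, 11.35 and 11.21 with the miR-9 LNA and at 10.96, 11.30 and 11.07 with the scrambled LNA. The groups overlapped, with a difference of 0.20 ± 0.10 (limma adjusted p = 0.380). KIF20A, a cytokinesis kinesin, differed by 0.16 ± 0.08, KIF11, which pushes spindle poles apart, by 0.15 ± 0.08, and KIF23, a subunit of centralspindlin, by 0.08 ± 0.07. After quantile normalization 2 of the 5 kinesins lay above 0, and the values ranged from -0.08 for KIF23 to 0.05 for KIF4A. The deposited difference without scrambled replicate 1 was 0.10 for KIF20A and 0.13 for KIF2C. It was 0.10 for KIF11 without scrambled replicate 3 and 0.02 for KIF23 without miR-9 LNA replicate 2. With replicate number as a block, 3 of the 5 genes were higher at an unadjusted limma p under 0.05. Of all tested probe sets 21.8% were, and of the brightest class 45.5%.

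Spindle assembly proteins had the highest share of low p-values among the 8 roles, with 6 of 6 genes higher, 5 of 6 at an unadjusted limma p under 0.05 and a median difference of 0.26. An unadjusted p under 0.05 in the higher direction was found for 13.8% of all tested probe sets and 31.2% of the brightest class, and after quantile normalization for 0 of these 6 genes. TPX2, which activates AURKA on the spindle, was at 11.32, 11.39 and 11.24 with the miR-9 LNA and at 11.06, 11.13 and 11.05 with the scrambled LNA. The groups did not overlap, and the difference was 0.24 ± 0.06 (limma adjusted p = 0.296). PRC1, the bundler of midzone microtubules, was at 10.92, 10.96 and 10.94 with the miR-9 LNA and at 10.55, 10.72 and 10.77 with the scrambled LNA. The PRC1 groups did not overlap, with a difference of 0.26 ± 0.07 (limma adjusted p = 0.296).

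DLGAP5, a stabilizer of kinetochore fibres, differed by 0.34 ± 0.11, NUSAP1, a microtubule-binding protein of the spindle, by 0.29 ± 0.08, and ASPM, which focuses spindle poles, by 0.26 ± 0.09. HMMR, a spindle protein and hyaluronan receptor, differed by 0.26 ± 0.17 and was the only gene of this role whose groups overlapped. After quantile normalization all 6 spindle assembly genes stayed above 0, from 0.05 for TPX2 to 0.15 for DLGAP5, with a median of 0.07 and overlapping groups in each. Without miR-9 LNA replicate 1 the deposited difference of ASPM was 0.17, and without scrambled replicate 3 that of HMMR was 0.17. Whether this role differed from the others was not tested.

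Of the remaining genes, ANLN, the scaffold of the cytokinetic ring, was at 9.71, 9.73 and 9.96 with the miR-9 LNA and at 9.42, 9.66 and 9.74 with the scrambled LNA. Its groups overlapped, and its difference was 0.19 ± 0.11 (limma adjusted p = 0.427). TOP2A, the topoisomerase that untangles sister chromatids, was at 12.43, 12.24 and 12.20 with the miR-9 LNA and at 11.76, 12.56 and 12.44 with the scrambled LNA. Its groups overlapped fully, with scrambled replicate 1 the lowest and scrambled replicate 2 the highest of the 6 arrays. The TOP2A difference was 0.04 ± 0.20 (limma adjusted p = 0.932), and it was -0.20 without scrambled replicate 1. After quantile normalization ANLN differed by 0.02 and TOP2A by -0.14, and the deposited difference of ANLN was 0.10 without scrambled replicate 1.

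**Figure D3:**
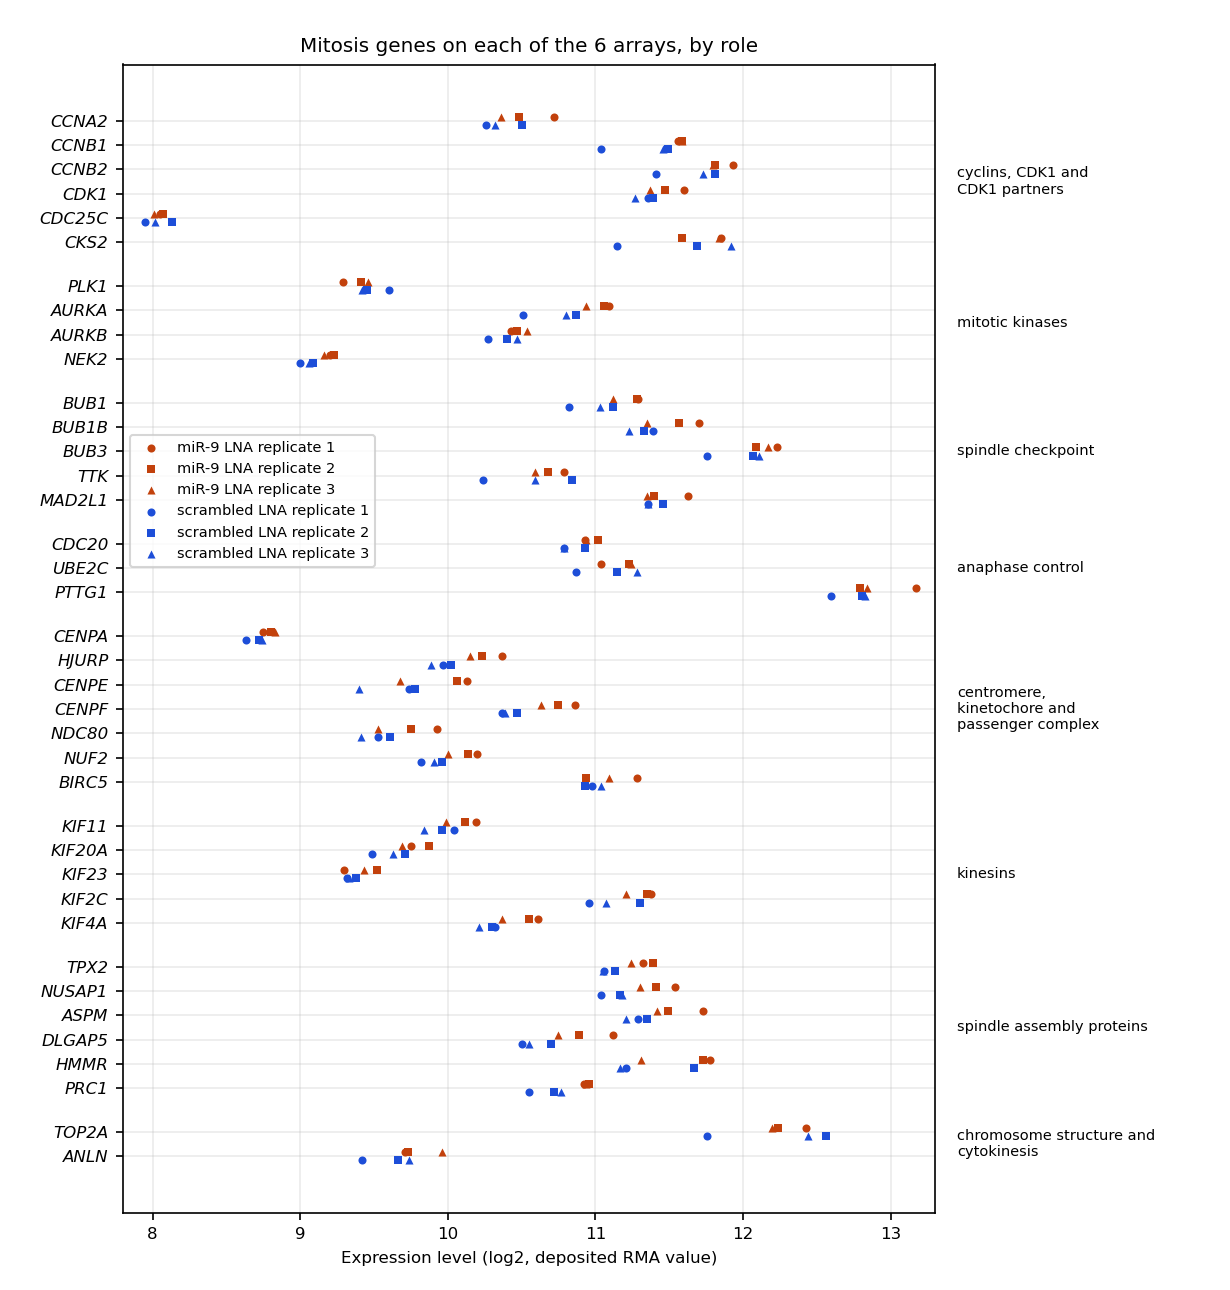
The horizontal axis is the deposited log2 level and each row is 1 mitosis gene, grouped by role, with the 3 miR-9 LNA arrays above the 3 scrambled LNA arrays and marker shape giving the replicate number. For 24 of the 38 genes the lowest point is scrambled replicate 1, and for 13 of the 38 every miR-9 LNA point lies right of every scrambled point.

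Other probe sets of the same genes mostly lay higher too. The 38 genes had 76 probe sets, of which 72 were tested, and of these 64 lay above 0 and 8 below. These counts include the 38 probe sets used above, of which 37 lay above 0. Of all tested probe sets 66.9% lay above 0, and of the brightest class 95.3%. Of 20 genes with several tested probe sets, 6 had both signs, namely ASPM, AURKB, BUB1, CCNB2, CDC25C and TOP2A. For ASPM the probe set used above differed by 0.26 ± 0.09, while 2 others differed by -0.15 ± 0.21 and -0.21 ± 0.23. For TOP2A the probe set used above differed by 0.04 ± 0.20, while the 2 others differed by 0.19 ± 0.08, with groups that did not overlap, and by -0.10 ± 0.16. For CDK1, 2 further probe sets differed by 0.25 ± 0.10 and 0.17 ± 0.09, also without overlap. Its dimmest probe set differed by 0.23 ± 0.10, with overlapping groups. NUSAP1 differed by 0.29 ± 0.08 at the probe set used above and by 0.0049 ± 0.21 at a second. The genes given as examples here were not fixed in advance.

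The levels varied with single arrays and with the replicate number. Scrambled replicate 1 was the lowest of the 6 arrays for 24 of the 38 mitosis genes (63.2%), against 44.3% of all tested probe sets and 73.7% of the brightest class. The median deviation of the mitosis genes from each gene's mean over the 6 arrays was 0.18, 0.12 and 0.01 on miR-9 LNA replicates 1, 2 and 3, and -0.18, -0.02 and -0.08 on scrambled replicates 1, 2 and 3. The brightest class was at 0.14, 0.06 and 0.08 on the miR-9 LNA arrays and at -0.23, -0.03 and -0.01 on the scrambled arrays. Between same-numbered arrays, 27 of 38 mitosis genes (71.1%) had the miR-9 LNA array above its partner in 3 of 3 pairs, against 40.2% of all tested probe sets and 67% of the brightest class. CDC25C, CKS2, PLK1, MAD2L1 and TOP2A were higher in 1 of 3 pairs.

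The arrays numbered 3 were the lowest of each group for the mitosis genes after quantile normalization. In the deposited values this was so only in the miR-9 LNA group. After quantile normalization the median deviation was -0.07 on miR-9 LNA replicate 3 and also -0.07 on scrambled replicate 3, while the other 4 arrays lay between 0.01 and 0.06. The brightest class lay within 0.01 of 0 on all 6 arrays by the same measure. In the deposited values the median deviation of the mitosis genes was 0.01 on miR-9 LNA replicate 3 and -0.08 on scrambled replicate 3. Scrambled replicate 1 was lower at -0.18. Replicate 3 was the lowest array of both groups for 11 of 38 mitosis genes (28.9%), against 11.8% of the brightest class. Replicate 1 was so for 8 of 38 (21.1%), against 19.8%, and replicate 2 for 1 of 38 (2.63%), against 5.55%. These counts were made after the values were seen, and the share over all tested probe sets was not counted. HMMR, for example, was at 11.31 on miR-9 LNA replicate 3 and at 11.17 on scrambled replicate 3, and at 11.73 and 11.67 on the replicates numbered 2.

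**Figure D4:**
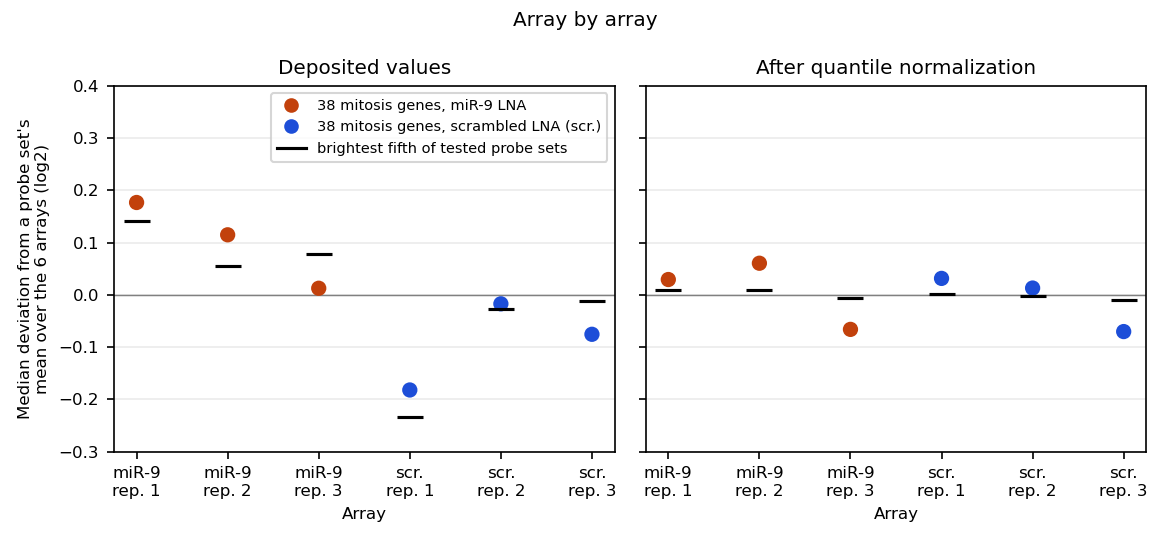
The vertical axis is the median deviation from each probe set's mean over the 6 arrays, on the log2 scale, for the 38 mitosis genes (points) and the brightest class of tested probe sets (black bars) on each array along the horizontal axis. In the deposited values scrambled replicate 1 lies lowest at -0.18 for the mitosis genes and -0.23 for the brightest class, and after quantile normalization both arrays numbered 3 lie at -0.07 for the mitosis genes.

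Other mitotic genes lay at a similar distance from 0. Of 120 further genes of mitotic entry, G2/M transcription, the anaphase-promoting complex, kinetochores, condensin, cohesin, motors and cytokinesis, 115 were named on the array and 111 passed the level filter. The difference was above 0 for 100 and below 0 for 11, with a median difference of 0.18, against 66.9% above 0 among all tested probe sets and 95.3% in the brightest class. By limma 0 of the 111 passed the adjusted threshold, while 48 (43.2%) were higher and 0 lower at an unadjusted p under 0.05, against 13.8% higher and 0.626% lower among all tested probe sets and 31.2% higher in the brightest class. The second brightest class had 24.9% higher. The median level was 9.60 for these 111 genes and 10.44 for the brightest class, so that class is not matched to them in level. After quantile normalization it was above 0 for 67 and below 0 for 44, with a median of 0.01, and 4 were higher and 2 lower at an unadjusted limma p under 0.05, against 2.38% and 2.17% of all tested probe sets.

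The smallest p in the higher direction belonged to WAPL, which releases cohesin from chromosomes, NCAPG2, a condensin II subunit, and ANAPC7, a subunit of the anaphase-promoting complex. WAPL was at 10.13, 10.18 and 10.25 with the miR-9 LNA and at 9.71, 9.92 and 9.86 with the scrambled LNA. Its groups did not overlap, and its difference was 0.35 ± 0.07 (limma adjusted p = 0.296). NCAPG2 differed by 0.36 ± 0.08 and ANAPC7 by 0.24 ± 0.06, each without overlap. Groups of WAPL and NCAPG2 also did not overlap after quantile normalization, with differences of 0.18 and 0.20, while those of ANAPC7 overlapped, at 0.07. In the lower direction were FZR1, which activates the complex after anaphase, at -0.12 ± 0.06 and without overlap, LIN37, a MuvB subunit, at -0.08 ± 0.06, and E2F4, the E2F of the DREAM repressor, at -0.10 ± 0.09. After quantile normalization the groups of FZR1 (-0.16) and E2F4 (-0.24) did not overlap, and those of LIN37 (-0.13) did. Of the 111 genes, 8 were then without overlap in the higher and 5 in the lower direction, against 5.98% and 5.72% of all tested probe sets. Among the 18 tested condensin and cohesin genes 17 lay higher with a median of 0.21, and 12 of 18 (66.7%) had an unadjusted limma p under 0.05, against 13.8% of all tested probe sets and 31.2% of the brightest class. This list was picked after the values were seen, as the one of highest share among the lists of other mitotic genes. The other lists ranged from 25% for G2/M transcription to 55.6% for mitotic entry, and a difference between lists was not tested. After quantile normalization 12 of 18 lay higher with a median of 0.02, and 4 of 18 had an unadjusted limma p under 0.05, against 2.38% of all tested probe sets.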

How the data were processed

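The authors hybridized total RNA of 6 L428 samples to Affymetrix HG-U133 Plus 2.0 arrays, per the labels, and the values they deposited are on a log2 scale. The submitters' processing notes name RMA and the affy package. Versions, options and any added offset are not given in the sources used here. Of 54675 probe sets, 62 controls were left out. The 27307 with a mean at or above the median of the rest (log2 of 7.11) were tested by a two-sided moderated test (limma 3.58.1, R 4.3.3, lmFit then eBayes) at a Benjamini-Hochberg adjusted threshold of 0.05. The number of arrays limits the precision, and exact permutation of 3 against 3 arrays cannot go below p = 0.1.

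Names came from the platform annotation, with 41091 probe sets of 1 symbol, 1801 of several and 11721 of none. Members and lists were chosen with earlier results of these data known. All 38 are named, with values on every array for the 2 of smallest p in each role, members below 0, CCNB1, CDK1 and PLK1. Of the other mitotic genes, the 3 of smallest p in each direction are named.

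The labels do not say what a replicate number shares. Deviations from group means correlated across probe sets at r = 0.231, 0.193 and 0.634 between same-numbered arrays. Between arrays of different numbers r ranged from -0.429 to 0.168, the highest between miR-9 LNA replicate 1 and scrambled replicate 2. Numbers 1 and 2 were thus hardly told apart, and number 3 stood out. Deviations from the mean of a group are also tied to each other. Same-numbered arrays were taken as pairs on this basis, which does not establish the pairing. Other settings varied the level filter, the normalization, variance model, array weights, replicate block, probe set rule, threshold and each array left out. Quantile normalization was over all probe sets that are not controls. The script was tested on simulated data. Figures were drawn with matplotlib 3.10.9.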

Additional observations from a re-analysis of the deposited data

How the results depend on the processing

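No member passed a limma adjusted p under 0.05 in any setting, and 0 of all tested probe sets did. Taking an unadjusted limma p under 0.05 instead passed 3926 probe sets, 12 mitosis genes and 48 other mitotic genes. Of 608 member differences recomputed over 16 settings, 560 kept their direction. This count does not measure stability, because the level filters, the variance model and the replicate block cannot change a member's difference. Quantile normalization also enters it both with and without the block, at the same differences. The replicate block left each difference as it was and raised the members at an unadjusted limma p under 0.05 to 20, with 0 past the adjusted threshold. With the block, the same count over all tested probe sets was 6218 and over other mitotic genes 58. On quantile-normalized values it was 3 members higher and 2 lower, against 0 higher and 1 lower without the block. The block changed no call at the adjusted threshold. After quantile normalization, with or without the replicate block, 22 members lay higher, the median was 0.01 (0.010368 for mitosis genes and 0.011679 for other mitotic genes), and 15 members turned below 0. These were CCNA2 (-0.030), CDK1 (-0.061), CDC25C (-0.046), CKS2 (-0.0073), AURKB (-0.083), TTK (-0.057), MAD2L1 (-0.14), CDC20 (-0.063), UBE2C (-0.12), CENPA (-0.023), BIRC5 (-0.071), KIF11 (-0.030), KIF20A (-1.5e-05), KIF23 (-0.080) and TOP2A (-0.14). With array weights CDC25C (-0.035), CKS2 (-0.012), TTK (-0.052) and TOP2A (-0.20) turned, and 33 members lay higher. With probe sets averaged CDC25C (-0.025), AURKB (-0.031) and ASPM (-0.033) turned, and with the probe set of largest variance CDC25C (-0.061), AURKB (-0.16) and ASPM (-0.21). Leaving out each array in turn, members higher ranged from 32 (without scrambled replicate 1) to 37, and their median from 0.12 (without scrambled replicate 1) to 0.23. The differences then ranged from -0.030 to 0.057 for CDC25C, -0.050 to 0.34 for CKS2, -0.018 to 0.12 for MAD2L1, -0.025 to 0.28 for TTK, -0.046 to 0.16 for UBE2C and -0.20 to 0.19 for TOP2A. MAD2L1 turned without miR-9 LNA replicate 1, TOP2A without miR-9 LNA replicate 1 or scrambled replicate 1, CDC25C without miR-9 LNA replicate 2 or scrambled replicate 1, and CKS2, TTK and UBE2C without scrambled replicate 1. The cause was not tested. Array values reached no lower than about 6 (log2), which limits differences of dim genes.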
